A study of Mus musculus with 5 samples.

Results

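Glucuronosyltransferases (UGT), glutathione S-transferases (GST), microsomal glutathione S-transferases (MGST) and sulfotransferases (SULT) were examined in intestinal tumour epithelium of Apc1638N mice and in normal intestinal epithelium of wild-type mice. Members were the genes whose symbol in the platform annotation begins with Ugt, Gst, Mgst or Sult followed by its family letter or number, taken from probe sets that carry a single symbol. The rule found 41 genes among the 12393 genes of the array, with 9 UGT, 18 GST, 3 MGST and 11 SULT genes, represented on 54 probe sets. The rule reads gene symbols only, but the enzyme families were picked with earlier results of these data known. Each gene was read from the probe set with the highest mean over the 5 arrays. A further 5 probe sets list several symbols, among them all 3 for the Ugt1a locus, and are described as probe sets outside the count of members.

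Expression was measured on 5 Affymetrix arrays. The tumour group held 3 intestinal tumours (tumours 16, 18 and 2) from Apc1638N animals on the C57Bl6/J strain, which carry a truncating mutation of the Wnt pathway scaffold gene Apc in all tissues. The control group, named wild types 36 and 62, held 2 samples of normal intestine from C57Bl6/J mice without the mutation. All animals were labelled as males of 8 months, no treatment was named, and RNA came from epithelial cells lifted from sections by laser capture microdissection. The labels give neither the zygosity of the Apc allele nor the part of the intestine that was sampled. Conjugation enzymes are known to vary along the gut, and a difference in region between the groups cannot be told apart from a difference between tumour and normal epithelium. Whether the samples came from separate animals is not stated either, and p-values therefore measure only a spread between samples that may be technical. Normal epithelium of the Apc1638N animals was not analysed here, so genotype and tumour cannot be told apart.

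Conjugation enzymes join a bulky, water-soluble group to drugs, dietary chemicals, bilirubin, bile acids, steroids and lipid peroxidation products, which are then pumped out of the cell. UGT enzymes sit in the endoplasmic reticulum and use UDP-glucuronic acid, SULT enzymes of the cytosol use the sulfate donor PAPS, and GST enzymes use glutathione. Absorptive enterocytes of the small intestine carry all these classes and are the first cells to meet ingested chemicals. In bulk samples such as these, fewer cells of a type and less RNA per cell cannot be told apart.

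Promoter windows of 5 members are shown first, because Ugt2b5 and Ugt2b38 fell while Ugt2b37, whose upstream sequence is similar, did not pass the test. The difference between these genes was not tested. Ugt2b37 lay below the 25th percentile on every array, wild types included, so a fall may not have been detectable. Sequences are from RefSeq (build GRCm38.p6), 250 bases ending just before the annotated start, in the direction of the gene. The first 3 windows belong to the glucuronosyltransferase genes Ugt2b5 (chr5:87140341-87140590, minus strand), Ugt2b38 (chr5:87424204-87424453, minus strand) and Ugt2b37 (chr5:87254789-87255038, minus strand). Capitals mark the longest run of letters that all 3 windows share, which is 62 bases.
Ugt2b5: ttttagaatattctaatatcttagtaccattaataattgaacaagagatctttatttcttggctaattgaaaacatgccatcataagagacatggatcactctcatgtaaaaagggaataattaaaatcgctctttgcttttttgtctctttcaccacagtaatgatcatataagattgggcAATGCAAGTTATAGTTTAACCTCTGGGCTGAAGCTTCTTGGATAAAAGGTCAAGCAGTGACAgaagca
Ugt2b38: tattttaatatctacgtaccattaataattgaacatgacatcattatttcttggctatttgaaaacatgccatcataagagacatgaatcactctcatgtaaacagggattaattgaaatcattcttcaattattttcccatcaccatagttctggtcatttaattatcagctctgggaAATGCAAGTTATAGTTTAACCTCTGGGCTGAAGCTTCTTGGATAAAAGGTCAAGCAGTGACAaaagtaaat
Ugt2b37: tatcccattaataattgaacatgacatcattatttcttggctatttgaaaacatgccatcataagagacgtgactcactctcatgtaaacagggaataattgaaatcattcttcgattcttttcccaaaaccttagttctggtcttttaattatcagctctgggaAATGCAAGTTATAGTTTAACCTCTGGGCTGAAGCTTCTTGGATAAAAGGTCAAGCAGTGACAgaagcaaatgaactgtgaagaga
In global alignments the Ugt2b38 window was 84.8% identical to that of Ugt2b37 and 81.5% identical to that of Ugt2b5. The windows of Ugt2b5 and Ugt2b37 were 72.6% identical. The 2 other Ugt2b windows, of Ugt2b1 and Ugt2b34, aligned with these 3 and with each other at 46.9% to 49.3%. Pairs within the Gstm, Gstt, Gsta and Sult1 families aligned at 42.9% to 50.5%, so values in that range set no pair apart.

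The last pair of windows belongs to Ugt2a3, the UGT gene with the largest fall (chr5:87337196-87337445, minus strand), and to Gsta3, the only member that rose (chr1:21240335-21240584, plus strand). Capitals mark letters of the motifs searched on both strands, which were the core of the antioxidant response element (TGACNNNGC), the core of the xenobiotic response element (GCGTG), a full palindromic site of the hepatocyte nuclear factor HNF1 (spacer of any base), its short repeat unit (GTTAAT, contained in the full site) and a core of an HNF4 site (CAAAGTCCA).
Ugt2a3: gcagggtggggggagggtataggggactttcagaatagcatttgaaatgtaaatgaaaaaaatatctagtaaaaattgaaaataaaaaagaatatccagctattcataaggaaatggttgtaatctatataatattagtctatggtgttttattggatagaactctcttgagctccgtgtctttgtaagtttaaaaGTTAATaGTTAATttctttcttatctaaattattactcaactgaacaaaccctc
Gsta3: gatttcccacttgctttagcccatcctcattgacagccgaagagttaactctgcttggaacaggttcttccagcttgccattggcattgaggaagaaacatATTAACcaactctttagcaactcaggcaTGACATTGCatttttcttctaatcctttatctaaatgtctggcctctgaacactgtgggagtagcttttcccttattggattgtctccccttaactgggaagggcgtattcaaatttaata
The capitals in Ugt2a3 are 2 matches to the HNF1 repeat unit, which start 54 and 47 bases before the annotated start. In Gsta3 they are 1 match to the HNF1 repeat unit on the other strand, 149 bases before the start, and 1 match to the antioxidant response core, 121 bases before it. Windows were found for 36 of the 41 members and for all 17 members that fell. The HNF1 repeat unit matched 2 of those 17 genes, 5 of the 36 members and 7.49% of 27025 genes in the promoter table. The antioxidant response core matched 1 of the 17, 4 of the 36 and 11.5% of all genes, and the xenobiotic response core 6, 10 and 30.9%. The full HNF1 site and the HNF4 core matched none of the 36 members, and 0.0111% and 0.451% of all genes. These matches describe letters in the windows and carry no test.

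The comparison asked which conjugation enzymes differ between tumour epithelium and normal epithelium. Most changes were falls, and they touched all 4 classes. Of the 41 members 17 were lower in tumours at an adjusted p of 0.05 (41.5%), against a background of 10.5% of all genes. A single member, Gsta3, was higher, against 11.3% of all genes, and 23 did not pass. All adjusted p-values of genes here are from limma, with Benjamini-Hochberg adjustment over the 12393 genes. Among the members 14 fell at least 2-fold (34.1%, against 4.49% of genes), and 1 rose at least 2-fold (against 3.45%). Ugt2a3, Ugt2b5, Gstm3 and Sult1b1 fell by more than 3 on the log2 scale (9.76%, against 0.492%). The median change of members, tumour minus wild type, was -0.38 on the log2 scale, and that of all genes was 0.00. Tumour values lay wholly below wild-type values for 24 members (58.5%), against 23.7% of genes, and wholly above them for 3, against 27% of genes.

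**Figure D1:**
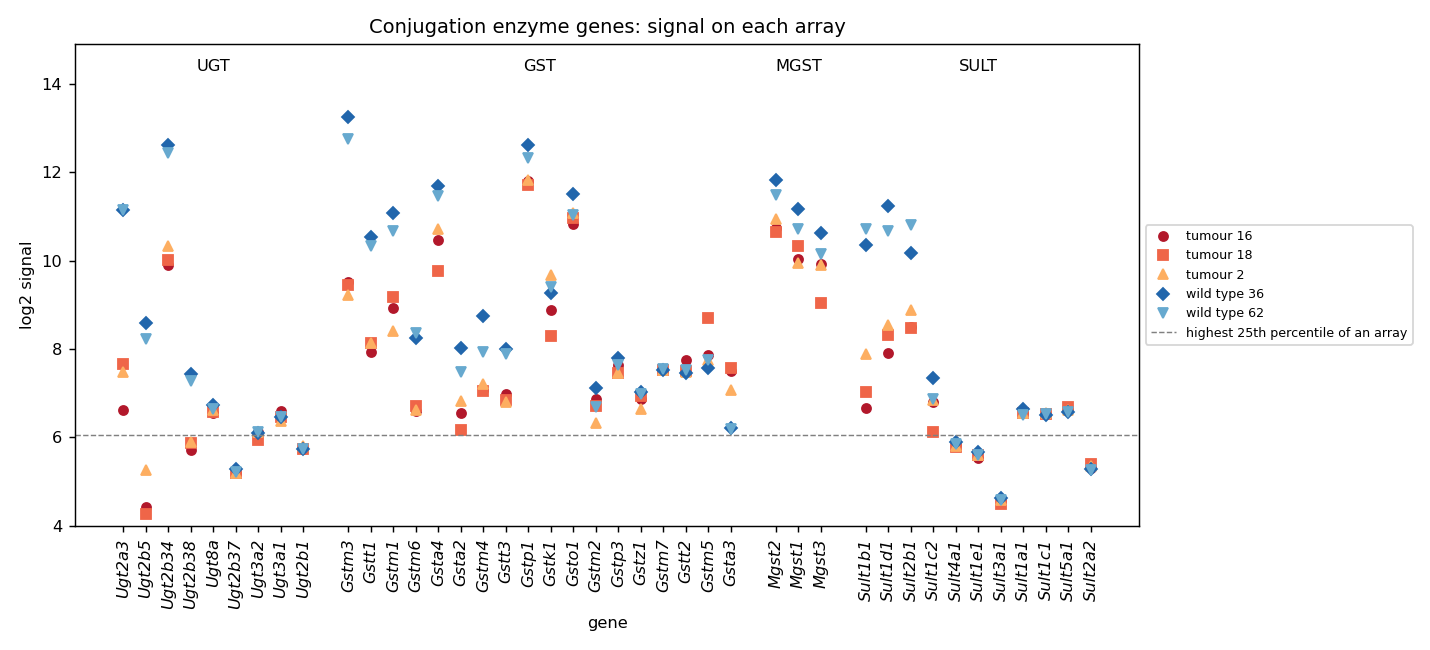
Log2 signal of the 41 conjugation enzyme genes (x axis, by class) on each of the 5 arrays, with red and orange points for the 3 tumours, blue points for the 2 wild types and a dashed line at 6.06, the highest 25th percentile of an array. Blue points stand clear above the tumour points for Ugt2a3, Gstm3, Gstt1, Sult1b1 and Sult1d1, Gsta3 shows the opposite order, and the points of Ugt2b1, Gstm7 and Sult1a1 lie nearly on top of each other.

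These counts rested on the arrays used. With tumour 16 omitted 8 members were lower (against 2.9% of all genes), with tumour 18 omitted 10 (4.05%), and with tumour 2 omitted 13 (8.75%). With wild type 36 omitted 5 were lower (3.36%) and with wild type 62 omitted 0 (0%). In the last 2 fits the lone wild type is assumed to vary like the tumours. Gsta3 kept its call only in the fit that omitted tumour 2. The count of 0 without wild type 62 was shared with all genes, of which none passed, and came with 22 members (and 3880 genes) whose limma p was under 0.05 before adjustment. The same 5 fits gave 13, 17, 17, 14 and 14 lower members when tied probe sets, those with 1 value shared within a group, were dropped, against 6.37%, 7.79%, 12.3%, 8.14% and 5.41% of genes. All 17 lower members stayed below wild type in each of these fits. Their groups do not overlap, so omitting 1 array could not change the direction, and this adds no support.

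Other measures moved with the groups, and their part in the results was not tested. The marker counts below stand against 10.5% of all genes that fell and 11.3% that rose. Of 10 measured absorptive enterocyte markers 6 fell and 0 rose, with a summed signal of 11.74 to 13.73 (log2) in tumours and 15.57 to 15.86 in wild types. All 10 crypt and proliferation markers rose, among them the stem cell receptor Lgr5 and the proliferation marker Mki67. Of 10 epithelial markers 1 fell (Vil1) and 2 rose (Krt18 and Krt19), and their summed signal was 15.00 to 15.42 in tumours and 15.19 to 15.30 in wild types. Of 7 fibroblast and matrix markers 1 rose (Dcn), with a sum of 11.10 to 13.35 in tumours and 10.04 to 10.42 in wild types. Of 8 T cell markers 6 fell, with a sum of 9.76 to 10.01 in tumours and 11.43 to 11.83 in wild types. Of 5 B and plasma cell markers 2 fell, with a sum of 11.51 to 12.34 in tumours and 13.67 to 14.59 in wild types. Smooth muscle, myeloid and hepatocyte markers rose in 1 of 6 each (Acta2, Cd14 and Ttr), while albumin (Alb) did not pass. Their sums in tumours and wild types were 10.62 to 10.83 and 9.78 to 10.09 for smooth muscle, 10.64 to 11.39 and 10.24 to 10.80 for myeloid cells, and 10.23 to 11.25 and 9.50 to 9.51 for hepatocytes. Most of the hepatocyte sum in tumours was the single gene Ttr, which read 10.86, 10.89 and 9.29 in tumours 16, 18 and 2. Endothelial and pancreatic acinar markers had 0 called of 6 and of 5. On every array Emcn, Tek, Itgam, Fga and Cela2a lay below the 25th percentile, and no marker has a signal of 0 on this scale. The signal of the 3' end of beta-actin exceeded that of its 5' end by 3.999 to 4.25 in tumours and by 2.51 to 3.32 in wild types, and for Gapdh by 4.50 to 4.83 and 3.67 to 4.01.

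Among UGT genes, Ugt2a3 and 3 genes of the Ugt2b family fell. Of 9 members 4 fell (44.4%, against 10.5% of all genes), 0 rose (against 11.3%) and 5 did not pass. Ugt2a3, whose enzyme glucuronidates bile acids, read 6.62, 7.65 and 7.47 in tumours 16, 18 and 2 and 11.14 in both wild types. The groups lay far apart, with tumour 16 the lowest. The tumour mean was 7.25 ± 0.55 (SD, n = 3) and the wild-type mean 11.14 ± 0.00 (SD, n = 2), and Ugt2a3 fell 14.8-fold (log2 change -3.89, SE 0.35, adjusted p = 0.00812 in limma).

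Ugt2b5, a steroid and drug glucuronosyltransferase of the Ugt2b family, read 4.43, 4.27 and 5.25 in the tumours and 8.60 and 8.22 in the wild types. It fell by 3.76 (SE 0.35, adjusted p = 0.00873 in limma), and no fold is given, because its tumour mean of 4.65 was under the lower quartile of each array's signal (6.03 to 6.06). Ugt2b34, another gene of this family, read 9.89, 10.003 and 10.32 in the tumours and 12.62 and 12.45 in the wild types. All tumours lay at least 2 log2 units below both wild types, a 5.50-fold fall (log2 change -2.46, SE 0.15, adjusted p = 0.00524 in limma). A second Ugt2b34 probe set fell by 3.27 (SE 0.13, adjusted p = 0.00467 over probe sets in limma). Ugt2b38 read 5.72, 5.88 and 5.91 in the tumours and 7.45 and 7.28 in the wild types and fell by 1.53 (SE 0.09, adjusted p = 0.00498 in limma), with tumour values below the 25th percentile of the arrays.

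Ugt2b37 and Ugt2b1 gave no such difference. Ugt2b37, whose promoter window is the closest to that of Ugt2b38, read 5.20 in each tumour and 5.30 and 5.23 in the wild types (log2 change -0.06, 95% interval -0.16 to 0.04). Ugt2b1 read 5.75 to 5.80 on all arrays. Both lay below the 25th percentile on every array, so that a change of transcripts at this level may not have been detectable. Ugt3a1 and Ugt3a2, whose enzymes use other UDP sugars, and Ugt8a, which makes galactosylceramide of myelin, differed by 0.01, -0.05 and -0.10 and did not pass. For Ugt8a a second probe set differed by 0.39 (adjusted p = 0.0880 over probe sets in limma) in the opposite direction. Without wild type 62 no UGT gene passed (adjusted p = 0.0526 to 0.0762). Ugt2a3 and Ugt2b5 also lost their calls without wild type 36 (0.0669 and 0.0701) and Ugt2b5 without tumour 16 (0.0523). With tied probe sets left out all 4 kept their calls in each of the 5 fits.

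The Ugt1a locus makes several enzymes from alternative first exons joined to shared later exons, among them Ugt1a1, which glucuronidates bilirubin. Its 3 probe sets list 8 Ugt1a symbols each and so name no single enzyme. One read 10.81, 10.55 and 10.83 in tumours 16, 18 and 2 and 13.16 and 12.66 in the wild types, and fell by 2.18 (SE 0.19, adjusted p = 0.00853 over probe sets in limma). The others had log2 changes of -1.37 (SE 0.13) and -2.62 (SE 0.22), with adjusted p-values of 0.0106 and 0.00828. All 3 therefore had tumour values well below both wild types. They read the same locus on the same arrays and do not count as separate results. Of all probe sets 8.72% fell and 9.58% rose. A probe set for Ugt2a1 and Ugt2a2 read 5.48 to 5.59 on all arrays and differed by 0.00.

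**Figure D2:**
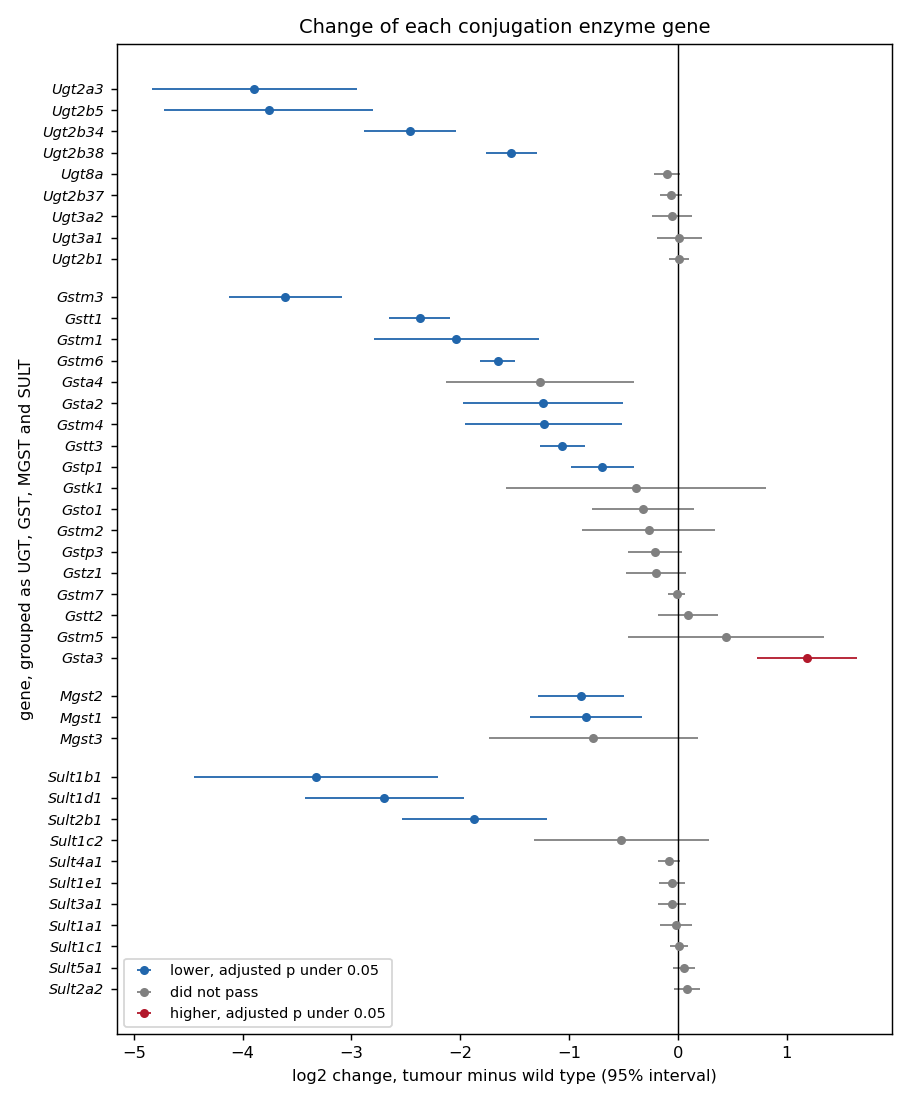
Log2 change of each member, tumour minus wild type (x axis), with limma's 95% interval as a bar, for 3 tumour and 2 wild-type arrays and genes grouped by class. Blue marks the 17 genes that fell, red the 1 that rose (Gsta3) and grey the 23 that did not pass. The grey bars of Gsta4, Gstk1, Gstm5 and Mgst3 are wide, and they rest on the spread within both groups.

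Among GST genes the mu class held the most that fell, and Gsta3 of the alpha class rose. Of 18 GST members 8 fell (44.4%, against 10.5% of all genes), 1 rose (5.56%, against 11.3%) and 9 did not pass. In the mu class, which detoxifies epoxides and other electrophiles, 4 of 7 fell (57.1%, against 10.5% of all genes) and 0 rose. Gstm3 read 9.51, 9.45 and 9.22 in tumours 16, 18 and 2 and 13.26 and 12.74 in the wild types. The tumours lay close together and far below both wild types, a 12.2-fold fall (log2 change -3.61, SE 0.19, adjusted p = 0.00491 in limma). A second Gstm3 probe set fell by 3.95 (SE 0.17).

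Gstm1 read 8.92, 9.18 and 8.40 in the tumours and 11.07 and 10.67 in the wild types, a 4.11-fold fall (log2 change -2.04, SE 0.28, adjusted p = 0.0170 in limma). Tumour 18 was the highest of the 3 tumours, and the groups did not overlap. The other 3 Gstm1 probe sets differed by -0.72, -1.60 and -2.004 and passed too (adjusted p = 0.0271, 0.0221 and 0.0259 over probe sets in limma). Gstm6 read 6.60, 6.71 and 6.61 in the tumours and 8.25 and 8.35 in the wild types and fell 3.15-fold (log2 change -1.66, SE 0.06, adjusted p = 0.00416 in limma). Gstm4 fell 2.35-fold with the widest gap between wild types, 8.75 and 7.93, and tumours at 7.07, 7.04 and 7.20 (adjusted p = 0.0422 in limma).

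Gstm7 depended on the probe set. The one used for the gene read 7.54 on 4 arrays and 7.56 on wild type 62 and differed by -0.01. The other read 6.76, 7.002 and 6.85 in the tumours and 8.10 and 7.77 in the wild types and fell by 1.06 (SE 0.13, adjusted p = 0.0166 over probe sets in limma). Gstm2 differed by -0.27 and Gstm5, a mu enzyme known from brain and testis, by 0.44, and neither passed. Gstm5 read 8.70 in tumour 18 and 7.57 to 7.87 on the other 4 arrays. Mu class genes are close paralogs, and cross-hybridization between their probe sets was not tested.

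Of 3 theta class genes, 2 fell (66.7%, against 10.5% of all genes). Gstt1, which acts on halogenated solvents, read 7.93, 8.13 and 8.14 in the tumours and 10.54 and 10.34 in the wild types, a 5.18-fold fall (log2 change -2.37, SE 0.10, adjusted p = 0.00450 in limma). Gstt3 read 6.99, 6.84 and 6.80 in the tumours and 7.99 and 7.89 in the wild types, again without overlap, and fell 2.08-fold (log2 change -1.06, SE 0.08, adjusted p = 0.00582), while Gstt2 differed by 0.09 (95% interval -0.18 to 0.37). The pi class gene Gstp1 read 11.80, 11.71 and 11.83 in the tumours and 12.62 and 12.32 in the wild types. Its tumours lay close together and below both wild types, a fall of 1.62-fold (log2 change -0.69, SE 0.11, adjusted p = 0.0206 in limma). Gstp3 differed by -0.21 and did not pass.

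Alpha class genes moved in opposite directions. Gsta3 read 7.51, 7.57 and 7.08 in tumours 16, 18 and 2 and 6.21 and 6.18 in the wild types, so that every tumour exceeded both wild types. It rose 2.28-fold (log2 change 1.19, SE 0.17, adjusted p = 0.0184 in limma), and a second Gsta3 probe set differed by 0.16 (SE 0.13) and did not pass. Gsta2 read 6.56, 6.16 and 6.82 in the tumours and 8.02 and 7.48 in the wild types and fell 2.36-fold (log2 change -1.24, SE 0.27, adjusted p = 0.0446 in limma).

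A probe set shared by Gsta1, Gsta2 and Gm3776 read 8.68, 6.83 and 10.03 in tumours 16, 18 and 2 and 11.80 and 11.59 in the wild types. All tumours lay below the wild types, but they spanned over 3 log2 units among themselves, and the change of -3.19 (SE 1.02) did not pass (adjusted p = 0.112 over probe sets in limma). Gsta4, whose enzyme clears the lipid peroxidation product 4-hydroxynonenal, read 10.47, 9.77 and 10.72 in the tumours and 11.69 and 11.47 in the wild types. It differed by -1.26 (SE 0.32) without passing (adjusted p = 0.0603 in limma), and passed after median centring (0.0433), after a filter on low signal (0.0431) and after tied probe sets were dropped (0.0395). In all 3 of these alpha class readings tumour 18 was lowest and tumour 2 highest.

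The single kappa, omega and zeta class genes did not pass. Gstk1, the mitochondrial and peroxisomal form, read 8.88, 8.29 and 9.68 in tumours 16, 18 and 2 and 9.27 and 9.39 in the wild types, so that tumour 2 lay above both wild types and the other tumours below them. Gsto1, which reduces dehydroascorbate, differed by -0.32 in the probe set used and by -1.09 in its other probe set (adjusted p = 0.0520 over probe sets in limma). Gstz1, a step of tyrosine breakdown, differed by -0.20.

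Among the GST calls, Gstm3, Gstt1 and Gstm6 were lost only without wild type 62 (adjusted p = 0.0526 each), and Gstt3 without wild type 36 or 62 (0.0529 and 0.0578). Gstm1 was lost without tumour 16, wild type 36 or wild type 62 (0.0770, 0.103 and 0.0905), and Gsta3 when any array other than tumour 2 was omitted (0.0642 to 0.115). Gsta2, Gstm4 and Gstp1 lost their calls whichever array was omitted, with adjusted p-values of 0.0605 to 0.185, 0.0526 to 0.148 and 0.0529 to 0.0885. For Gstm4 the log2 change was -0.82 without wild type 36 and -1.64 without wild type 62. With tied probe sets left out, Gstm3, Gstt1, Gstm6 and Gstt3 kept their calls in each of the 5 fits. Gstm1, Gsta2, Gstm4, Gstp1 and Gsta3 each lost the call in some of them.

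Of 3 microsomal GST genes 2 fell (66.7%, against 10.5% of all genes), both by less than 2-fold, 0 rose and Mgst3 did not pass. Mgst2, a membrane enzyme that can make leukotriene C4, read 10.73, 10.64 and 10.94 in the tumours and 11.83 and 11.49 in the wild types, a fall of 1.85-fold (log2 change -0.89, SE 0.15, adjusted p = 0.0239 in limma). Mgst1, of the endoplasmic reticulum and the outer mitochondrial membrane, read 10.04, 10.33 and 9.95 in the tumours and 11.17 and 10.73 in the wild types and fell 1.79-fold (log2 change -0.84, SE 0.19, adjusted p = 0.0468 in limma). The call for Mgst1 was lost with quantile normalization (0.0543), with the mean of all probe sets (0.0916) and whichever array was omitted (0.0826 to 0.167). Its other probe set differed by 0.06, with 5.47 to 5.66 on all arrays. Mgst3 differed by -0.78 (SE 0.35, adjusted p = 0.209), with tumour 18 at 9.03 and tumours 16 and 2 at 9.92 and 9.89. Tumour values lay wholly below wild-type values for all 3 genes, as they did for 23.7% of all genes. The call for Mgst2 was lost when any array other than tumour 2 was omitted. With tied probe sets left out, Mgst1 and Mgst2 still lost their calls in some of the 5 fits.

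Sulfotransferases held 3 genes with large falls and 7 that differed by less than 0.1. Of 11 members 3 fell (27.3%, against 10.5% of all genes), 0 rose (against 11.3%) and 8 did not pass. Sult1b1, which sulfates thyroid hormones and small phenols, read 6.67, 7.03 and 7.90 in tumours 16, 18 and 2 and 10.35 and 10.70 in the wild types. Tumour 2 lay closest to the wild types and still more than 2 log2 units below them, and the mean fell 10.03-fold (log2 change -3.33, SE 0.41, adjusted p = 0.0139 in limma). Sult1d1, which sulfates dopamine and related amines, read 7.91, 8.31 and 8.54 in the tumours and 11.23 and 10.67 in the wild types, a 6.49-fold fall (log2 change -2.70, SE 0.27, adjusted p = 0.00945 in limma).

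A second Sult1d1 probe set fell by 3.00 (SE 0.24). Sult2b1, which sulfates cholesterol and pregnenolone, read 8.49, 8.47 and 8.89 in the tumours and 10.18 and 10.80 in the wild types and fell 3.66-fold (log2 change -1.87, SE 0.24, adjusted p = 0.0155 in limma). For Sult1c2 the values were 6.81, 6.13 and 6.85 in the tumours and 7.35 and 6.88 in the wild types, a difference of -0.52 that did not pass. The remaining 7 genes (Sult1a1, Sult1c1, Sult1e1, Sult2a2, Sult3a1, Sult4a1 and Sult5a1) differed by -0.08 to 0.08. Of these Sult1e1, the oestrogen sulfotransferase, Sult2a2, Sult3a1 and Sult4a1 lay below the 25th percentile on every array, and Sult1a1, a phenol sulfotransferase, had the same value of 6.56 in all 3 tumours. Sult1b1 and Sult2b1 lost their calls when any array other than tumour 2 was omitted (adjusted p = 0.0548 to 0.103 and 0.0540 to 0.0796), and Sult1d1 without wild type 36 or 62 (0.0626 and 0.0635). With tied probe sets left out, Sult1d1 and Sult2b1 kept their calls in each of the 5 fits, and Sult1b1 lost its call without wild type 62.

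Genes that fell and genes with flat signal lay side by side on the chromosomes. In the RefSeq gene order 13 Ugt2 and Sult1 genes follow each other from Ugt2b34 to Sult1e1, and 9 of them are members. Of the 9, 6 fell (Ugt2b34, Ugt2b5, Ugt2a3, Ugt2b38, Sult1b1 and Sult1d1) and 3 did not pass (Ugt2b1, Ugt2b37 and Sult1e1). The 3 that did not pass lay between or next to genes that fell, and all 3 were below the 25th percentile on every array, wild types included. In the run of 7 Gstm genes from Gstm5 to Gstm4, 4 fell and 3 did not pass. In the run of Gstt3, Gstt1, Gstt4 and Gstt2 the first 2 fell. The counts in these runs stand against 10.5% of all genes that fell.

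**Figure D3:**
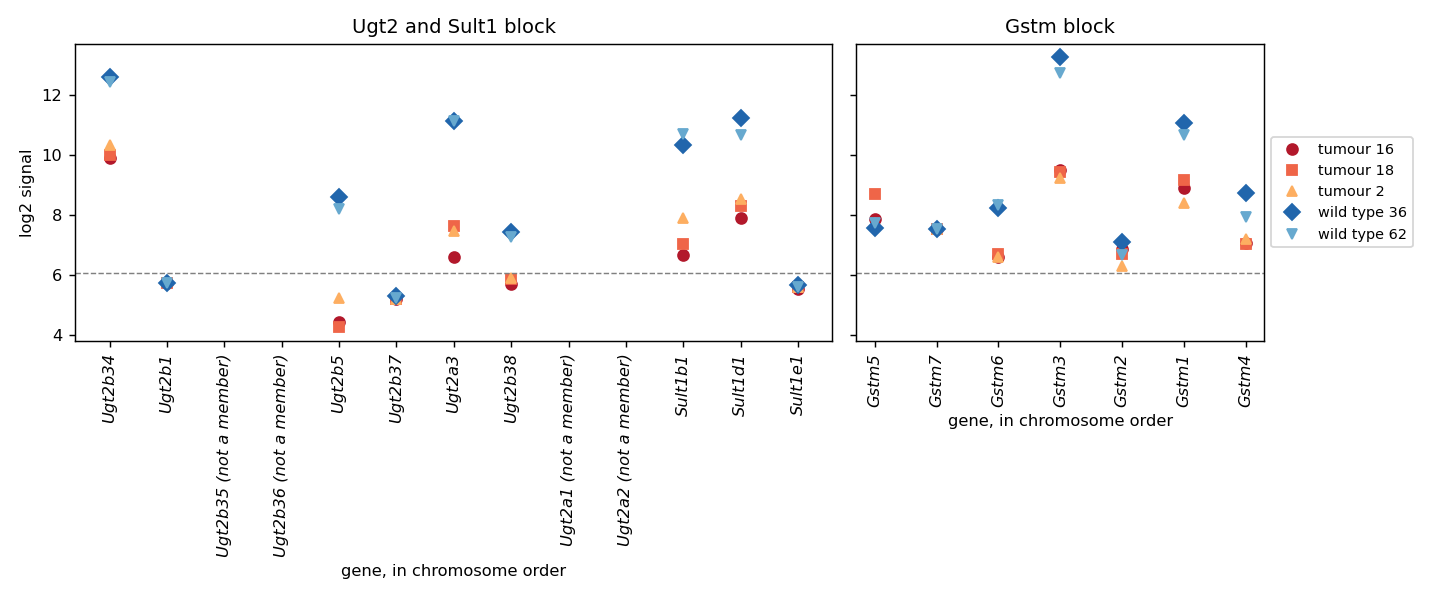
Log2 signal on each array for genes in chromosome order, with the Ugt2 and Sult1 run at left and the Gstm run at right, red and orange points for the 3 tumours, blue points for the 2 wild types and a dashed line at 6.06. Wild-type points above 10 with tumour points well below them (Ugt2b34, Ugt2a3, Sult1b1, Sult1d1) alternate with genes near or below the line on all 5 arrays (Ugt2b1, Ugt2b37, Sult1e1).

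Members that fell mostly had high wild-type signal. Of 14 members with a wild-type mean over 10, 11 fell (78.6%), against 38.8% of the 832 genes with such a mean. The 3 that did not pass were Gsta4, Gsto1 and Mgst3. Of 6 members with a wild-type mean at or below 6.06, 0 fell, against 1.19% of the 2098 genes in that range, so this count is near the background. The wild-type mean is itself a part of the change, so these shares are a description. In a fit limited to the 8680 genes at or above the 40th percentile of mean signal, 16 of 30 members fell, against 15% of those genes. Below that percentile stood 11 members, of which Ugt2b5 and Ugt2b38 fell in the fit of all genes and 9 did not pass.

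The order of the 3 tumours differed from member to member. Relative to the wild-type mean the median member was lower by 0.45 in tumour 16, by 0.62 in tumour 18 and by 0.37 in tumour 2. Of the 17 members that fell, 11 had their highest tumour value in tumour 2, 4 in tumour 18 and 2 in tumour 16. The median range over the 3 tumours was 0.25 for members and 0.15 for all genes, and a range of at least 1 was seen for Gstk1, Sult1b1 and Ugt2a3. The fibroblast and matrix sum was lowest in tumour 2 (11.10) and highest in tumour 18 (13.35), and the enterocyte sum was lowest in tumour 16 (11.74). Their part in the order of the tumours was not tested.

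Some genes that supply the conjugation reactions also fell. Of 15 measured cofactor supply genes 6 fell (40%) and 0 rose, against 10.5% and 11.3% of all genes, with a median change of -0.14. Papss2, which makes the sulfate donor PAPS, read 8.92, 8.88 and 10.47 in tumours 16, 18 and 2 and 12.27 and 11.97 in the wild types and fell 6.49-fold (log2 change -2.70, SE 0.58, adjusted p = 0.0420 in limma). Tumour 2 lay more than 1 log2 unit above the other tumours. The isoform gene Papss1 differed by -0.13 and did not pass. Cth, which makes cysteine for glutathione, fell 5.76-fold (log2 change -2.53, SE 0.17), and Ugdh, which makes UDP-glucuronic acid, fell 3.80-fold (log2 change -1.93, SE 0.23). Gclc, the catalytic subunit of the first enzyme of glutathione synthesis, differed by 0.26 and did not pass.

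Among 9 genes of glutathione conjugate breakdown 5 fell (55.6%, against 10.5% of all genes) and 0 rose, with a median of -1.11. The brush border aminopeptidase Anpep fell by 3.24 (SE 0.19). The dipeptidase Dpep1 fell by 3.13 (SE 0.21), and the acetyltransferase Nat8, which makes mercapturates, fell by 3.11 (SE 0.18). Of 7 export pumps 3 fell (42.9%, against 10.5% of all genes) and 1 rose (against 11.3% of all genes). The single rise is not read as a difference from all genes. Abcc2, which exports conjugates at the apical membrane, fell by 3.37 (SE 0.34) and Abcg2 fell by 3.08 (SE 0.22). The drug efflux pump Abcb1a fell by 2.26, while Abcc1, a pump of the basolateral membrane, rose by 1.62 (SE 0.09). Abcc1 read 8.09, 8.22 and 7.98 in the tumours and 6.54 and 6.41 in the wild types, with no overlap.

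**Figure D4:**
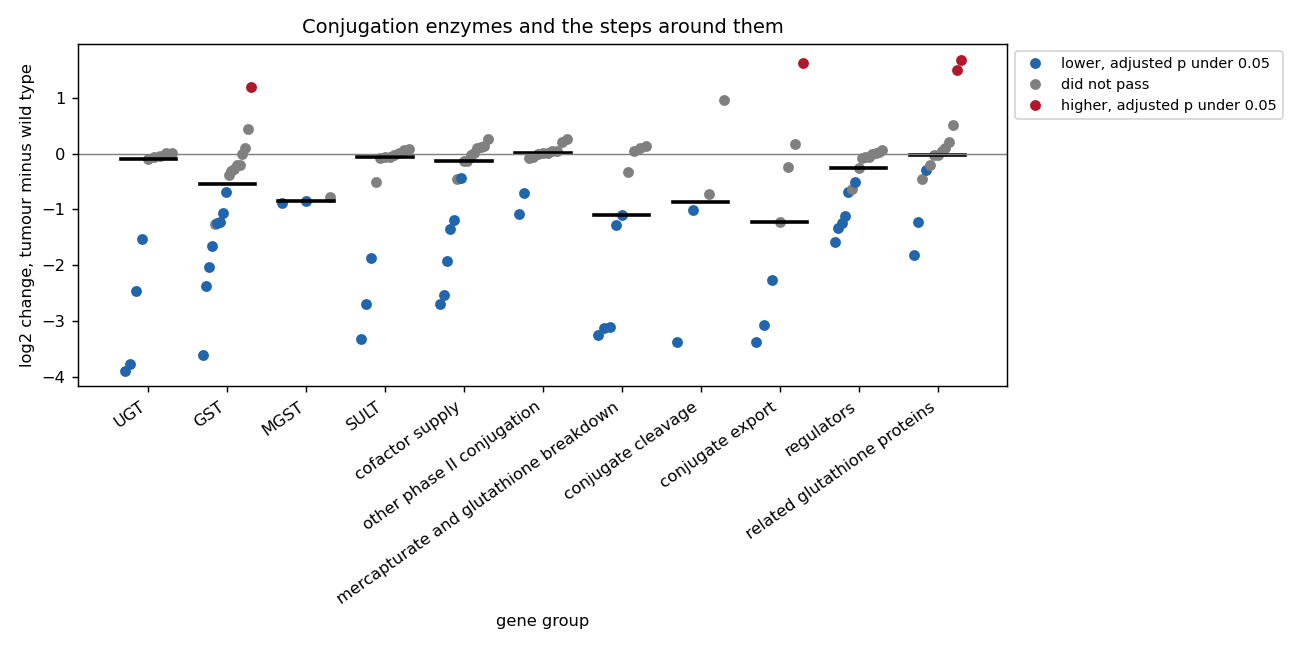
Log2 change, tumour minus wild type (y axis), of each measured gene in the 4 enzyme classes and in 7 groups of genes around them, with blue for lower, red for higher and grey for genes that did not pass, and a black line at the group median. Falls of 2 to 4 appear in the UGT, GST, SULT, cofactor, breakdown, cleavage and export groups, and the red points are Gsta3, Abcc1, Gpx2 and Clic4. In the cleavage group the fall beyond 2 is that of Ephx2, an epoxide hydrolase.

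The list of 4 conjugate cleavage genes includes the epoxide hydrolases Ephx1 and Ephx2, which open epoxides and do not cleave conjugates. Of the 4 genes 2 fell (50%, against 10.5% of all genes). These were Ephx2, with a log2 change of -3.37 (SE 0.37), and the sulfatase Arsa, with -1.003 (SE 0.07). The glucuronidase Gusb differed by 0.95 in the opposite direction, with an adjusted p of 0.0506 in limma. Of 11 genes of other conjugation reactions 2 fell (18.2%, against 10.5% of all genes), Nat2 with a change of -1.07 and As3mt with -0.70. The median was 0.00. Of 13 related glutathione proteins 3 fell (23.1%, against 10.5%) and 2 rose (15.4%, against 11.3%). In this list and the one before it few genes were called, and the counts are not read as a difference from all genes. Gpx2, the glutathione peroxidase of the gut epithelium, rose by 1.68 (SE 0.29) and Clic4 by 1.503 (SE 0.13), and Hagh fell by 1.82 (SE 0.19).

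Of 15 measured regulators of these enzymes 6 fell (40%, against 10.5% of all genes) and 0 rose, with a median of -0.27. The vitamin D receptor Vdr fell by 1.57 (SE 0.20), the constitutive androstane receptor Nr1i3 fell by 1.33 (SE 0.09), and Nfe2l2, the factor that binds antioxidant response elements, fell by 1.24 (SE 0.19). Bach1 (log2 change -1.11) and Nr1i2 (-0.70) fell too, and Ahr, which binds xenobiotic response elements, fell by 0.50. Hnf4a read 11.85, 11.61 and 11.87 in the tumours and 11.82 and 11.73 in the wild types and differed by 0.00 (SE 0.10). Cdx2 differed by -0.07 and did not pass. All members of these groups are measured on the same 5 arrays as the enzymes, and no test compared the groups.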

How the data were processed

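The deposited table held log2 values of 22690 probe sets for all 5 arrays, and that scale was inferred from its range (3.38 to 14.3). The submitters' processing notes name the R package affy. How background, normalization and summary were handled is not given in the sources used here, and the authors' values were taken as they stood. With 64 control probe sets set aside, 22626 remained. Names came from GEO's platform annotation, and the symbols of all 41 members matched the RefSeq table (GRCm38.p6). Each of 12393 genes was read from its single-symbol probe set of highest mean.

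Tumour minus wild type was fitted with limma 3.58.1 (lmFit, eBayes; R 4.3.3) with group as the only term (residual degrees of freedom 3, prior 1.23). Tests were two-sided, with Benjamini-Hochberg adjustment and a threshold of 0.05. SE is the moderated standard error. Folds are given where both group means exceed 6.06. An exact permutation test of 3 against 2 arrays cannot go below p = 0.1. Precision is limited by the number of arrays. The fit was tested on simulated data.

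Members and lists were chosen with earlier results of these data known. All members are named, with array values for those that passed, and up to 3 called genes of largest change were named per pathway list. Array values of members without a call and genes named beyond this (Papss1, Gclc, Gusb, Abcc1, Bach1, Nr1i2, Ahr, Hnf4a, Cdx2 and the marker genes) were chosen for print after their values were seen. Alternatives were quantile normalization, median centring, a filter at the 40th percentile of mean signal, moderation with trend and robust options, weights per array, averaging a gene's probe sets, dropping probe sets with shared targets (x, s or a before at in the name), dropping tied probe sets, and omitting each array.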

Additional observations from a re-analysis of the deposited data

How the results depend on the processing

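Lower members numbered 13 to 19 under the 8 alternatives that kept all arrays, with 1 higher member under each. Members measured ran from 30 to 41, and the share of all genes that were lower ran from 9.81% to 15%. The 13 were of 35 members with shared probe sets dropped (9.81%), and the 19 of 38 with tied ones dropped (12.9%). With single arrays omitted, lower members ran from 0 (without wild type 62) to 13, higher members from 0 to 1 and genes called from 0 to 2380. With tied probe sets also dropped, lower members ran from 13 to 17, and higher members were 0 without either wild type. Genes called were then 1507 without tumour 16, 1830 without tumour 18, 3069 without tumour 2, 1544 without wild type 36 and 1183 without wild type 62. One called member changed sign, Mgst1, at 0.0578 with shared probe sets dropped, where its other probe set is read. Among members without a call, Ugt8a turned to 0.14 when probe sets were averaged and to 0.39 with shared ones dropped. Ugt3a1 turned to -0.0097 with quantile normalization, -0.0191 with median centring, -0.0303 when averaged and -0.0750 with tied probe sets dropped, and ran from -0.0445 to 0.0661 with single arrays omitted. With both steps it was -0.0927 without tumour 16 or 18, -0.0396 without tumour 2, -0.0354 without wild type 36 and -0.11 without wild type 62. Sult1c1 turned to -0.0126 and -0.0190 with quantile normalization and median centring, and Ugt2b1 to -0.0176 with median centring. With single arrays omitted, Ugt3a2 ran from -0.0793 to 0.0034 (also 0.0034 without tumour 18 with tied probe sets dropped) and Sult1a1 from -0.0896 to 0.0551. The causes were not tested. Gstm7 passed at -1.06 with tied probe sets dropped and at -0.54 when averaged, and Gsto1 at -0.70 when averaged. No paired analysis was possible because the groups share no replicate numbers. With 2 wild-type arrays and many probe sets near background, small differences may not be detectable.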
